A study of Mus musculus with 18 samples.

Results

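Sval1, Nts, Pth and Stfa2 are 4 genes read here in mouse memory T helper 2 (Th2) cells. Their RNA was low or absent in culture with IL-2 alone and high in culture with IL-2 and IL-33. The genes are 4 of the 23284 gene symbols in the mouse tables, taken by name. They were chosen by their FPKM levels in these very Th2 libraries. Their Th2 levels are therefore described without a test. The cells were memory Th2 cells of BALB/c mice with high surface ST2, the receptor subunit for IL-33, and each culture lasted 3 days. One group had received IL-2 and IL-33 (n = 3 libraries, numbered 2, 4 and 6) and its control IL-2 alone (n = 3, numbered 1, 3 and 5), so all the cells had IL-2. Whole lungs of OVA-treated BALB/c mice were also sequenced, from knock-out mice that the labels call dGATA without spelling the name out (n = 3) and from wild-type mice (n = 3). All lungs were exposed to OVA, although the series' design text names house dust mite, and no lung without OVA was analysed here. The labels do not say which libraries came from separate animals or cultures, so a p-value measures the spread between these libraries only. A further 6 eosinophil libraries of the series list human genes and were not used.

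Parathyroid hormone, the product of Pth, is made by the chief cells of the parathyroid gland, and it raises blood calcium through its receptor Pth1r in bone and kidney. Neurotensin, the product of Nts, is a short peptide of the brain and of enteroendocrine cells in the gut, and it is read by Ntsr1, Ntsr2 and sortilin (Sort1). Both are translated as longer precursors and cut to size in the secretory pathway by proprotein convertases. Sval1 encodes a seminal vesicle antigen-like protein of the rodent SVA and prolactin-induced protein (PIP) family, whose members are secreted by exocrine glands. Stfa2 encodes stefin A2, an inhibitor of cysteine cathepsins. Stefins as a family are known to act mostly inside cells, so the word secretory suits Stfa2 less well than the other genes. IL-33 is an alarm cytokine released by damaged barrier cells, and memory Th2 cells with ST2 answer it by making type 2 cytokines.

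Pth stood at 156, 111 and 259 FPKM in IL-33 libraries 2, 4 and 6, against 8.63, 5.96 and 0 FPKM in IL-2 libraries 1, 3 and 5. FPKM are fragments per kilobase of transcript scaled to the number mapped, a level that is already divided by gene length. The lowest IL-33 library lay well above the highest IL-2 library. However, 2 of the 3 IL-2 libraries held more than 1 FPKM, so Pth was low rather than silent with IL-2 alone. Means were 175 ± 75.9 FPKM with IL-33 and 4.86 ± 4.42 FPKM with IL-2 (SD, n = 3 each), a log2(FPKM + 1) difference of 5.35. Pth lies on chromosome 7, chr7:113385576-113388573 on the minus strand (mm10), and its annotated transcript has 3 exons and 710 bases.

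Nts had 160.4, 133 and 349 FPKM in the IL-33 libraries, against 2.53, 2.76 and 0.689 FPKM in the IL-2 libraries. The groups did not overlap, and here too 2 of the 3 IL-2 libraries exceeded 1 FPKM. The means were 214 ± 118 FPKM with IL-33 and 1.99 ± 1.14 FPKM with IL-2 (SD, n = 3 each), a ratio of means of 107 and a log2(FPKM + 1) difference of 6.12. For both hormone genes the lowest IL-2 value came from library 5, which also had the lowest relative depth of the Th2 libraries, 0.669 against 1 in library 1. The part of depth in that low value was not tested. Nts lies at chr10:102481756-102490418 on the minus strand and its annotated transcript has 4 exons and 1248 bases.

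Sval1 was listed at 155, 117 and 249 FPKM in the IL-33 libraries, against 0, 0.176 and 0 FPKM in the IL-2 libraries. It was thus close to absent in every IL-2 library, and its log2(FPKM + 1) difference of 7.30 ranked 1 among the 10296 genes that passed the filter of 1 FPKM in at least 3 of the 6 Th2 libraries. The mean of 174 ± 68.3 FPKM with IL-33 ranked 382 by level among all 23284 symbols, against a mean of 0.0588 ± 0.102 FPKM with IL-2 (SD, n = 3 each). Sval1 lies at chr6:41951628-41956098 on the plus strand, with 4 exons and a transcript of 615 bases.

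Stfa2 reached 35.6, 50.9 and 28.6 FPKM with IL-33, against 0, 0.334 and 0.514 FPKM with IL-2. Its means were 38.4 ± 11.4 FPKM with IL-33 and 0.283 ± 0.261 FPKM with IL-2 (SD, n = 3 each), a log2(FPKM + 1) difference of 4.92. Stfa2 was the least abundant of the genes with IL-33, at rank 1861 by level, while Nts, Pth and Sval1 stood at ranks 304, 377 and 382. The means of Nts, Pth and Sval1 with IL-33 lay within 1 SD of each other, and every library of each exceeded every library of Stfa2. By log2 difference Nts ranked 3, Pth 6 and Stfa2 8 of 10296. Stfa2 lies at chr16:36403946-36408363 on the minus strand, with 3 exons and a transcript of 471 bases. No other GENCODE gene overlapped any of these genes.

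Pth, Nts, Sval1 and Stfa2 all passed the filter, Sval1 and Stfa2 through the IL-33 libraries alone. For scale, limma called 1680 of 10296 genes higher with IL-33, 16.3%, and 2651 lower, 25.7% (Benjamini-Hochberg adjusted p below 0.05). In 2234 of them, 21.7%, every IL-33 library lay above every IL-2 library, as in each of these genes, and since the genes were chosen for it nothing follows from their count. The number called lower was 1633 without IL-33 library 2 and 1530 without IL-33 library 4. The median gene had a log2 difference of -0.11, and among called genes 38.8% were higher as deposited, against 54.4% after rescaling to TPM and 54.3% after median-of-ratios scaling. Because the scale adds 1 to each FPKM, the differences of genes near 0 with IL-2 are understated.

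**Figure D1:**
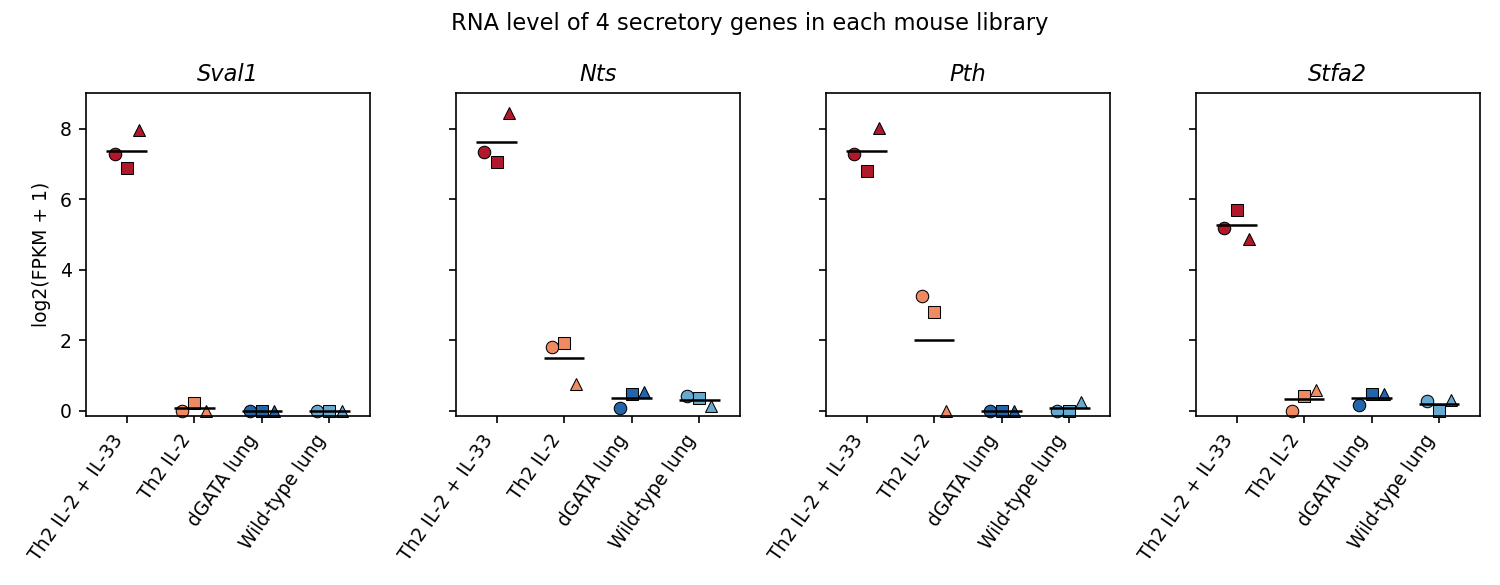
RNA level, as log2(FPKM + 1), of Sval1, Nts, Pth and Stfa2 in Th2 cells with IL-2 and IL-33, Th2 cells with IL-2, dGATA lung and wild-type lung. Each point is a library (circle, square and triangle in the order of the replicate numbers) and each bar the mean of 3. The IL-33 libraries stand apart for every gene, and Pth and Nts show a low level in IL-2 libraries 1 and 3 that Sval1 and Stfa2 lack.

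The genes were chosen by their levels in the same Th2 libraries, so that they rise together is given by the choice. The sequence upstream of them was read as a description. Shown are the 150 bases before each annotated start, 5′ to 3′ on the gene's strand (RefSeq, GRCm38.p6). The capitals mark a run of 12 bases that Nts and Pth share.
Pth, chr7:113388574-113388723, minus strand: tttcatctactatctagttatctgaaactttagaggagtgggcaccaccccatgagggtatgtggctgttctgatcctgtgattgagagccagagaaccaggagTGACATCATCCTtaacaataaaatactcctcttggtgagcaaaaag
Nts, chr10:102490419-102490568, minus strand: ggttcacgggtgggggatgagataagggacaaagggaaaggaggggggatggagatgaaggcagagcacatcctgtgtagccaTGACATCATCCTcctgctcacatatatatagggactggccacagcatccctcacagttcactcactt
Sval1, chr6:41951478-41951627, plus strand: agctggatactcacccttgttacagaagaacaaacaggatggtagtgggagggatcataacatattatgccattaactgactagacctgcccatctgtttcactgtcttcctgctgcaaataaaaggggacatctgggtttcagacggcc
Stfa2, chr16:36408364-36408513, minus strand: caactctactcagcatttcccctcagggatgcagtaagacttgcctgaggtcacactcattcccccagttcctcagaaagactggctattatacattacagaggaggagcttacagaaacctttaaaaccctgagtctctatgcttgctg

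The run TGACATCATCCT lies 67 to 56 bases before the start of Nts and 46 to 35 bases before that of Pth, in the same orientation. For Pth the RefSeq gene span runs to base 113388672, upstream of the annotated start used here, 113388573. The run lies inside that span, so its place relative to the start of Pth depends on the start used. Searched on both strands, the run is present in the 250 bases upstream of 6 of 32851 RefSeq gene starts, or 0.0183%. Of the other genes with the run, 1700122O11Rik and Odf3l1 were listed at 0 FPKM in all Th2 libraries, and Ppfia3 did not exceed 0.108 FPKM there. The remaining gene, Gm33122, has no row in the tables. The run was thus also present upstream of genes with little or no RNA in these cells. The other 5 pairs among the genes shared no run longer than 9 bases.

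The shared run opens with TGACATCA, which differs in 1 base from TGACGTCA, the palindromic cAMP response element bound by CREB and ATF factors. This motif was picked after the sequences had been read. TGACATCA is present in 962 of 32851 upstream windows of 250 bases, 2.93%, searched on both strands. Among tested genes with a window, 132 hold it and 34 of these, 25.8%, were called higher with IL-33, Nts and Pth among them. The share was 16.5% of the 7367 tested genes with any window. Since the motif was picked from Nts and Pth, the 25.8% is a description. TGACGTCA itself is in 1.55% of windows and upstream of none of the 4 genes. Among the 240 tested genes with TGACGTCA, 12.1% were called higher with IL-33.

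Other short motifs were searched in the same windows and on both strands. AGATAA, the letters bound by GATA factors, is in 9.99% of windows and lies 131 bases before the start of Nts and 133 bases before that of Pth, in opposite orientations. TGACTCA, the AP-1 letters, is in 4.46% of windows and lies 207 bases before the start of Nts alone among these genes. TATAAA is in 12.4% of windows and occurs 249 bases before the start of Pth. TTCNNNGAA, letters bound by STAT factors, is in 7.02% of windows, and GGNNTTTCC, letters like those of NF-kB sites, in 4.93%, and neither occurs upstream of these genes. None of the searched motifs overlaps the GATA letters, and only the TGACATCA letters lie within the shared run. Among tested genes with the motif, the share called higher with IL-33 was 22.7% for TGACTCA, 19.5% for AGATAA and 18.2% for TATAAA. It was 17.5% for GGNNTTTCC and 14.7% for TTCNNNGAA, beside 16.5% of tested genes with any window. All the motifs are matches of letters, and no binding was measured.

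**Figure D2:**
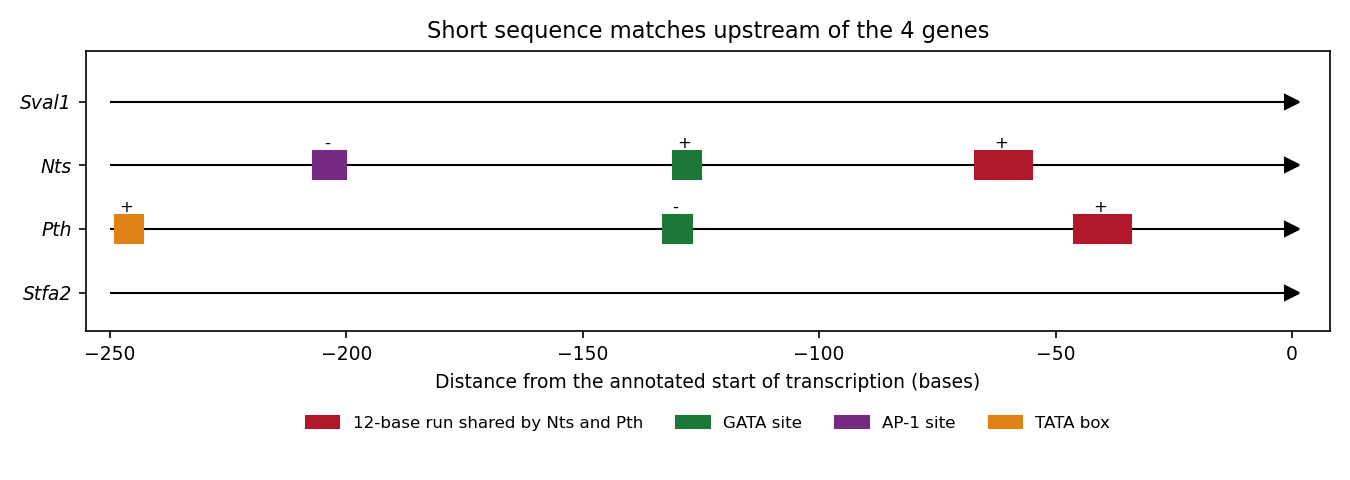
Positions of short sequence matches in the 250 bases upstream of the annotated start of each gene, in bases from the start, with the orientation as + or -. The shared run of Nts and Pth sits at -67 and -46 and the GATA letters at -131 and -133, and the windows of Sval1 and Stfa2 hold none of the motifs drawn.

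Within the IL-33 group, Nts, Pth and Sval1 shared an order of libraries that Stfa2 did not. Library 6 was highest and library 4 lowest for Nts, Pth and Sval1, whereas Stfa2 was highest in library 4 and lowest in library 6. Relative to the mean of libraries 2 and 4, library 6 held 2.38 times as much Nts, 1.94 times as much Pth and 1.84 times as much Sval1, but 0.661 times as much Stfa2. Across 7471 tested genes with a mean of at least 5 FPKM with IL-33 the median ratio was 1.05, with 5.7% of genes at 1.5 or more and 2.52% at the inverse of that or less. Library 6 had a relative depth of 0.737, against 1.34 in library 2 and 1.24 in library 4. The titles of libraries 5 and 6 spell ST2 high differently from the rest. The deviations of libraries 5 and 6 from their group means correlated at 0.314 across genes. Over the other pairs of an IL-33 and an IL-2 library the correlation ran from -0.273 to 0.267, the highest for libraries 2 and 3. Without libraries 5 and 6 the log2 differences were 6.97 for Sval1, 5.33 for Nts, 4.015 for Pth and 5.24 for Stfa2.

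Pth depended on library 5 most of all. Without IL-2 library 5, where it was listed at 0, its log2 difference was 4.34 instead of 5.35. Without libraries 5 and 6 together it was 4.015, the largest move among these genes, from values of 156 and 111 FPKM with IL-33, against 8.63 and 5.96 FPKM with IL-2.

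Over the 12 mouse libraries the log2(FPKM + 1) levels of the genes correlated pairwise at 0.913 (Pth with Stfa2) to 0.986 (Sval1 with Stfa2). All such values share the libraries and rest mostly on the gap between the IL-33 libraries and the 9 others, so they are given as a description. Among 11645 genes that reached 5 FPKM in a library, those most like each gene were listed by Pearson's r. Sval1 was followed most closely by Ermn, which encodes the cytoskeletal protein ermin (r = 0.9995, 9.85, 8.54 and 13.9 FPKM with IL-33 against 0.0902, 0.0876 and 0 FPKM with IL-2). Next came Kel, the Kell blood group endopeptidase (r = 0.998), and Zfyve16, an endosomal protein (r = 0.990). Ermn, Kel and Zfyve16 were also highest in IL-33 library 6 and lowest in library 4. They were picked by likeness over these same libraries, so the shared order follows in part from the pick.

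The genes most like Nts were Usp44, a deubiquitinase (r = 0.996), Kremen2, a co-receptor of Dickkopf proteins (r = 0.996), and Tnfrsf8, which encodes CD30 (r = 0.995). Tnfrsf8 had 116, 125 and 128 FPKM with IL-33, against 2.51, 2.81 and 0.409 FPKM with IL-2. As with Nts, its lowest IL-2 value was that of library 5. Closest to Pth were Slc17a6, a vesicular glutamate transporter (r = 0.991), Tax1bp1, an autophagy receptor (r = 0.988), and Dusp10, a MAP kinase phosphatase (r = 0.988). Each of these also had its lowest value of the IL-2 group in library 5. Slc17a6 had 15.3, 14.8 and 17.9 FPKM with IL-33, against 1.44, 1.17 and 0.245 FPKM with IL-2. The shared low values in library 5, that of Tnfrsf8 included, follow in part from the pick by likeness. Stfa2 was matched best by its cluster neighbour Gm5483 (r = 0.991), then by Aldoc, a glycolytic aldolase (r = 0.987), and Il1r2, the decoy receptor of IL-1 (r = 0.987).

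**Figure D3:**
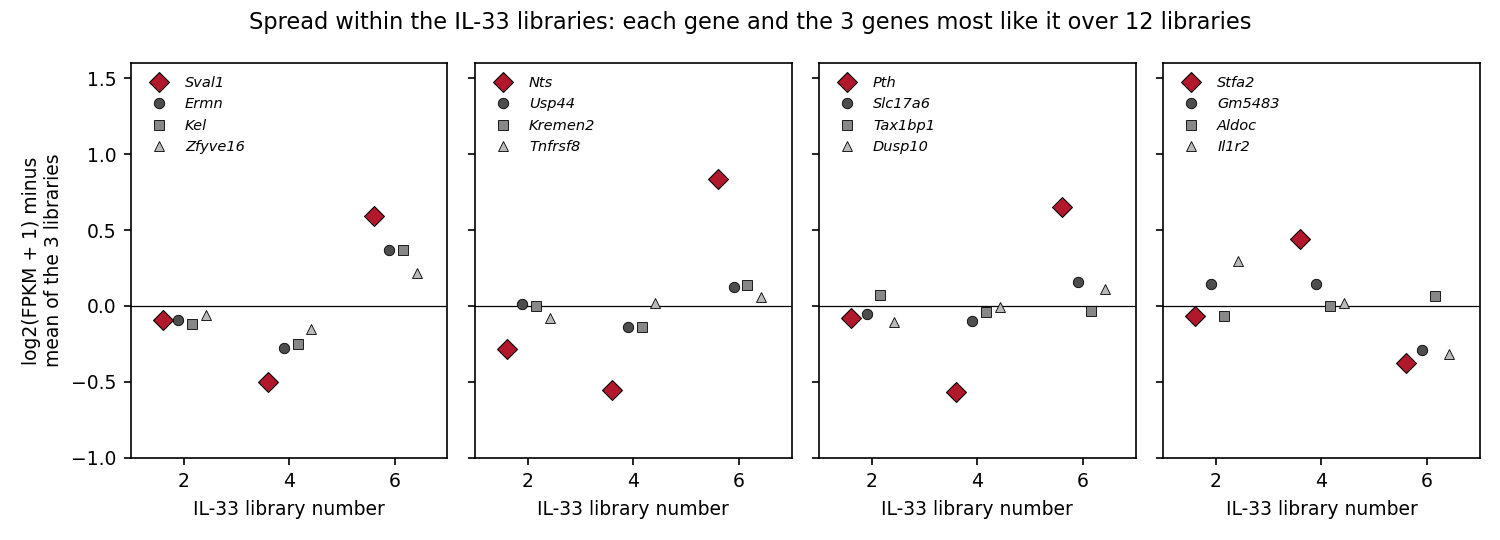
Deviation of each IL-33 library, numbered 2, 4 and 6, from the mean of the 3, in log2(FPKM + 1), for each gene (red diamonds) and the 3 genes most like it over 12 libraries (grey). Sval1, Nts and Pth lie highest in library 6 and lowest in library 4, and Stfa2 lies highest in library 4. The spread of each gene exceeds that of the genes most like it.

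In whole lung the genes were at or near 0. Nts was detected in every lung, at 0.0516, 0.396 and 0.459 FPKM in dGATA lungs and 0.334, 0.296 and 0.105 FPKM in wild-type lungs. The groups overlapped, and the log2(FPKM + 1) difference of 0.05 gave p = 0.7 in an exact two-sided permutation test (n = 3 each), in which 0.1 is the smallest p possible. Stfa2 stood at 0.115, 0.391 and 0.383 FPKM in dGATA lungs and 0.223, 0 and 0.235 FPKM in wild-type lungs, a log2 difference of 0.17 with an exact permutation p = 0.3. Pth was listed at 0 in every dGATA lung and at 0, 0 and 0.2005 FPKM in wild-type lungs (log2 difference -0.09, exact permutation p = 1.0). Sval1 was listed at 0 in all 6 lungs and was not tested.

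None of the genes passed the filter in the lung, where 13 of 13727 genes, 0.0947%, were called in either direction, 6 higher and 7 lower in dGATA lungs. Leaving out dGATA library 3 left 1 higher and 1 lower, and leaving out wild-type library 1, 2 or 3 left 3, 2 or 2 higher and 3, 3 or 5 lower. A lung difference in these genes was not detectable in this design, which is not evidence that there was none. In bulk tissue, fewer cells of a type and less RNA per cell cannot be told apart. The highest lung value of Nts, 0.459 FPKM, lay below each IL-2 library of the Th2 cells, the lowest of which held 0.689 FPKM. Stfa2 was about as low in dGATA lungs (0.296 ± 0.157 FPKM) and wild-type lungs (0.152 ± 0.132 FPKM) as in IL-2 cells (0.283 ± 0.261 FPKM, SD, n = 3 each). The order of levels was thus IL-33 cells above every other group for each gene, with IL-2 cells next for Nts, and for Stfa2 no separation among IL-2 cells, dGATA lungs and wild-type lungs. Pth was above 0 in 2 of the 3 IL-2 libraries and in 1 of the 6 lungs.

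The receptors for neurotensin and parathyroid hormone were absent or nearly so in the Th2 cells. Ntsr1 and Ntsr2 were listed at 0 FPKM in all 6 Th2 libraries. Sort1, the sorting receptor that also binds neurotensin, had 0.137, 0.0831 and 0.17 FPKM with IL-33 and 0.0228, 0.0665 and 0 FPKM with IL-2. In lung Sort1 ranged over 49.3 to 62.1 FPKM in dGATA mice and 55.55 to 62.5 FPKM in wild-type mice. Pth1r did not exceed 0.06 FPKM and Pth2r 0.0274 FPKM with IL-33, while with IL-2 Pth1r did not exceed 0.0371 FPKM and Pth2r was listed at 0. Pthlh, the parathyroid hormone-like hormone, was above 0 in 1 library of each Th2 group, at 0.0428 FPKM with IL-33 and 0.115 FPKM with IL-2, and Pth2 was listed at 0 in both groups. None of these 7 genes passed the Th2 filter.

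In lung, Pth1r stood at 1.17, 1.53 and 1.75 FPKM in dGATA mice and 2.44, 1.91 and 1.86 FPKM in wild-type mice, and limma did not call it. Of the other SVA and PIP family genes, Sva, Sval2 and Pip were listed at 0 FPKM in all Th2 and lung libraries. Sval3, which lies 12 kb from Sval1, was listed at 0, 0.176 and 0.587 FPKM with IL-33 and at 0 with IL-2. Sval1 was thus the one member of its family at more than 1 FPKM in these cells.

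Over all tested genes of the Th2 cells, 16.3% were called higher and 25.7% lower. Of 8 genes known to regulate parathyroid cells, 3 were tested and 1 was called higher. This was Gata3, a transcription factor of both Th2 cells and the parathyroid gland, with 213, 239.6 and 220.2 FPKM with IL-33 against 116, 119 and 76.7 FPKM with IL-2 (log2 difference 1.13, SE 0.172, limma adjusted p = 0.00279). Men1 (adjusted p = 0.529) and Cdc73 (adjusted p = 0.0996), tumour suppressors of the parathyroid, were not called by limma. Casr, the calcium-sensing receptor that controls parathyroid hormone release, was listed at 0 in all 6 Th2 libraries, although it is also a near neighbour of Stfa2.

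The proprotein convertase Furin, which cuts precursors in the Golgi, rose with IL-33 and was among the more abundant transcripts. It had 498, 555 and 1046 FPKM with IL-33, against 312, 304.5 and 434 FPKM with IL-2. Limma gave a log2 difference of 0.93 (SE 0.292, adjusted p = 0.0388), and library 6 held 1.99 times the mean of libraries 2 and 4, much as for Pth. The call was lost without a filter and without IL-2 library 1, IL-2 library 3 or IL-33 library 4, and over 15 alternatives the adjusted p ran from 0.000436 to 0.107. Pcsk4 (log2 difference -0.81, adjusted p = 0.0113) and Pcsk7 (log2 difference -0.23, adjusted p = 0.0359), also convertases, were called lower by limma. The Pcsk7 call was lost under 8 of 15 alternatives, with adjusted p from 0.0115 to 0.243. The carboxypeptidases Cpe and Cpd were not called, and 9 of the 14 processing genes never reached 1 FPKM in a Th2 library. In all 5 were tested, 1 was called higher and 2 lower, where 16.3% of all tested genes were higher and 25.7% lower.

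A wider list of 60 other peptide hormone genes showed how far such genes were read at all. Of these, 25 were listed at 0 in all 6 Th2 libraries, 49 never reached 1 FPKM, and 10 were tested. Limma called 4 higher and 1 lower, where 16.3% of all tested genes were higher and 25.7% lower. The median log2 difference of the 10 was 0.46, beside -0.11 over all tested genes. Ghrh, among the 4, passed the filter through its IL-33 libraries alone, so this count and median are a description. Penk, the proenkephalin gene, was the most abundant, at 419, 470.4 and 649 FPKM with IL-33 against 89.0, 103 and 91.5 FPKM with IL-2 (log2 difference 2.41, SE 0.166, adjusted p = 1e-04, limma). Calca, the calcitonin and CGRP gene, stood at 75.4, 74.8 and 74.4 FPKM with IL-33 against 18.3, 21.8 and 16.6 FPKM with IL-2 (log2 difference 1.94, SE 0.106, adjusted p = 3.7e-05, limma). Its IL-33 libraries were almost level, unlike those of Pth and Nts.

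Nmb, which encodes neuromedin B, rose to 12.5, 14.0 and 14.7 FPKM with IL-33, against 4.83, 6.74 and 5.19 FPKM with IL-2 (log2 difference 1.17, adjusted p = 0.000707, limma). Ghrh, the growth hormone-releasing hormone gene, had 3.41, 3.88 and 2.6 FPKM with IL-33 against 0, 0.233 and 0.359 FPKM with IL-2 (log2 difference 1.84), and it passed the filter through the IL-33 libraries alone, so no p is given. Igf2 was called lower, with 3.42, 4.06 and 1.61 FPKM with IL-33 against 11.0, 11.3 and 5.42 FPKM with IL-2 (log2 difference -1.34, adjusted p = 0.0167, limma). That call was lost without IL-2 library 1 or 3, with a highest adjusted p of 0.0538 and a lowest of 1.75e-05 over 15 alternatives.

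**Figure D4:**
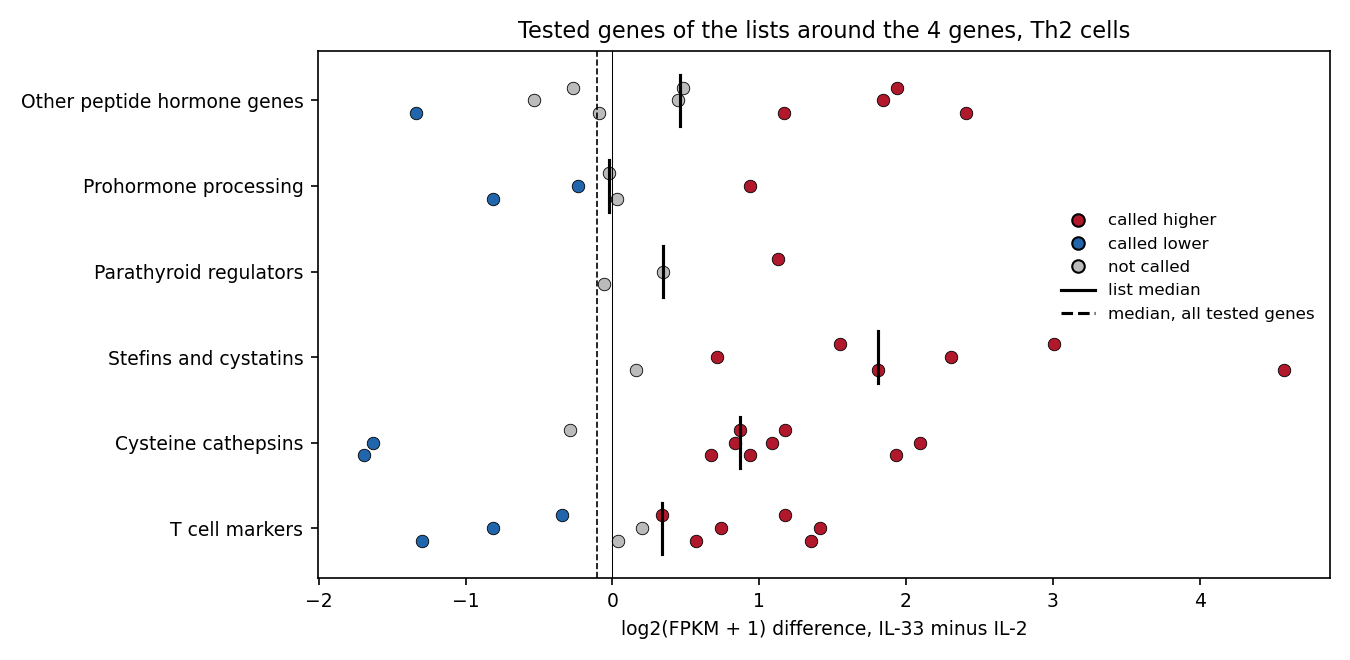
Difference in log2(FPKM + 1), IL-33 minus IL-2, of every tested gene of 6 lists, coloured by its limma call, with the list median as a bar and the median of all 10296 tested genes as a dashed line. The stefins and cystatins extend furthest to the right, and the 4 higher hormone genes lie between 1.17 and 2.41.

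Stfa2 belongs to a cluster of 10 stefin A genes over 335.4 kb of chromosome 16, and part of that cluster was higher with IL-33 as well. Of the 9 others, 5 stayed below the filter and 4 passed it. Those 4, Gm5483, Gm5416, Stfa2l1 and 2010005H15Rik, passed through their IL-33 libraries, so that limma called each of them higher is a description and no p is given. Gm5483, a stefin family gene, matched Stfa2 in level, with 41.9, 42.0 and 30.7 FPKM with IL-33 against 1.08, 0.35 and 0.539 FPKM with IL-2 (log2 difference 4.57). Gm5416 had 13.2, 12.3 and 9.78 FPKM with IL-33 against 0, 0.78 and 1.2 FPKM with IL-2 (log2 difference 3.01). Stfa2l1 had 4.69, 4.35 and 5.09 FPKM with IL-33 against 0, 0 and 0.536 FPKM with IL-2 (log2 difference 2.31). The lowest of these genes, 2010005H15Rik, had 2.69, 3.56 and 1.57 FPKM with IL-33 and was listed at 0 in each IL-2 library (log2 difference 1.81). As with Stfa2, Gm5483, Gm5416 and 2010005H15Rik were lowest in IL-33 library 6.

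The rest of the cluster was near 0. Stfa3 had 1.63, 0.293 and 0.49 FPKM with IL-33, BC100530 at most 0.77 FPKM, BC117090 at most 0.499 FPKM and Stfa1 at most 0.142 FPKM, and all of them were listed at 0 with IL-2. Csta, at the far end of the cluster, was listed at 0 in all 6 Th2 libraries. Level did not follow position, since Stfa2 lies between BC100530 and Stfa3, both below 1.7 FPKM, and Gm5483 lies between Stfa2l1 and Gm5416.

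Some stefin A genes share stretches of sequence, so reads from those stretches can be split or exchanged. Of the 422 possible 50-base words in the Stfa2 transcript, 15.9% also occur in another gene, mostly Stfa2l1. The share was 24.6% for Stfa2l1, 20.4% for 2010005H15Rik, 14.2% for Gm5483 and 0 for Gm5416 and Stfa3, and it was 0 for Sval1, Nts and Pth. Stfa2l1 shares words with the more abundant Stfa2, and 2010005H15Rik with the more abundant Gm5483. How far reads of the abundant gene supplied the low levels of Stfa2l1 and 2010005H15Rik was not tested, so the levels and differences of both are uncertain. The 250-base upstream window of Stfa2 was compared with those of 4 cluster genes at the best shift. It matched Stfa2l1 at 188 bases, Stfa3 at 176, Stfa1 at 138 and Csta (RefSeq Csta1) at 73. Stfa3 matched almost as well as Stfa2l1 and was below 1.7 FPKM with IL-33. The windows of Gm5483, Gm5416 and 2010005H15Rik were not compared, and the part of the window in the levels was not tested.

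**Figure D5:**
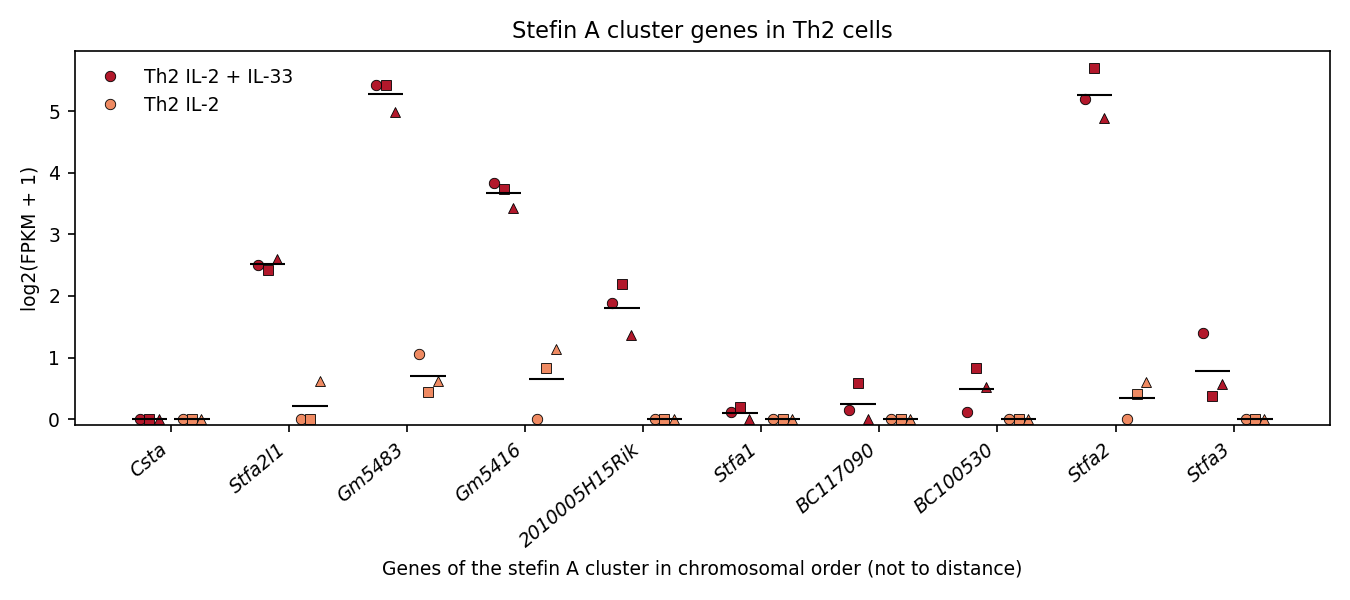
RNA level, as log2(FPKM + 1), of the 10 genes of the stefin A cluster in Th2 cells with IL-33 and with IL-2 alone, in chromosomal order. Points are libraries (circle, square and triangle in the order of the replicate numbers) and bars are means of 3. Stfa2 and Gm5483 reach about the same level with IL-33, with Gm5416, Stfa2l1 and 2010005H15Rik below them and the others near 0.

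Outside the cluster, the secreted cathepsin inhibitor Cst3 rose to 252, 237 and 220.5 FPKM with IL-33, against 79.3, 77.6 and 83.3 FPKM with IL-2 (log2 difference 1.55, SE 0.0836, adjusted p = 3.6e-05, limma). Cst7, cystatin F, was called higher (log2 difference 0.71, adjusted p = 0.0014, limma, from 0.000345 to 0.215 over 15 alternatives, with the call lost in the fit on 12 libraries), and Cstb, the ubiquitous stefin B, was not (102 ± 9.56 FPKM with IL-33 and 90.9 ± 10.1 FPKM with IL-2, SD, n = 3 each, adjusted p = 0.272, limma). In the whole list of 13 stefins and cystatins other than Stfa2, 7 were tested, 6 were called higher and none lower, with a median log2 difference of 1.81, where 16.3% of all tested genes were called higher and 25.7% lower. The 4 cluster genes among the 7 had passed the filter through their IL-33 libraries, so this count and median are a description.

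Cathepsin genes, whose cysteine protease products stefins inhibit, moved both ways. Of 12 cathepsin and legumain genes, among them the aspartic protease Ctsd, 11 were tested, 8 were called higher and 2 lower by limma, with a median log2 difference of 0.87, where 16.3% of all tested genes were higher and 25.7% lower. Ctsl stood at 5.64, 4.66 and 5.33 FPKM with IL-33 against 0.593, 0.782 and 0.507 FPKM with IL-2 (log2 difference 1.93). Like Ctsf and Ctsh it passed the filter through the IL-33 libraries alone, so no p is given. Ctsl, Ctsf and Ctsh are among the 8 called higher, so that count and the list median are a description. Ctsb rose 1.86-fold to 52.7 ± 1.92 FPKM with IL-33, against 28.4 ± 2.68 FPKM with IL-2 (SD, n = 3 each, adjusted p = 0.000593, limma). The calls of Ctsb and Ctsz were lost in a fit on all 12 mouse libraries, and over 15 alternatives the adjusted p ran from 8.54e-05 to 0.103 for Ctsb and from 0.00116 to 0.207 for Ctsz. Ctss, the cathepsin of antigen processing, fell to 34.4 ± 1.22 FPKM with IL-33, against 109 ± 6.82 FPKM with IL-2 (log2 difference -1.63, adjusted p = 2.6e-05, limma).

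The genes beside Sval1, Nts and Stfa2 were mostly at or near 0 in both Th2 groups, those beside Pth mostly not. Of the 24 nearest genes, 3 on each side, 19 were below the filter, 3 were called higher and 1 lower. Over all tested genes, 16.3% were called higher and 25.7% lower. Around Sval1, Pip, Sval2, Sva and Tas2r139 were listed at 0 in all Th2 libraries, and Olfr459 and Sval3 stayed below 1 FPKM. Kel lies next beyond Olfr459, 247 kb from Sval1, and had 5.71, 5.13 and 8.4 FPKM with IL-33 against 0.194, 0.0314 and 0.0484 FPKM with IL-2 (log2 difference 2.74). Kel was named for its likeness to Sval1 and passed the filter through its IL-33 libraries alone, so no test is given. Around Nts, Mgat4c, Mir3059, Alx1 and Lrriq1 were listed at 0 in all Th2 libraries, and Rassf9, 21.8 kb away, did not exceed 0.0316 FPKM with IL-33 and was listed at 0 with IL-2. Rassf9 stood at 8.61 to 13.6 FPKM in dGATA lungs and 8.22 to 11.9 FPKM in wild-type lungs, where Nts was near 0.

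Of the 6 nearest genes, 1 passed the filter around Stfa2, while 4 genes further along its cluster also passed it. Around Pth 4 of the 6 nearest did so, more than around any other of these genes. Its neighbours Btbd10 (log2 difference 0.53, adjusted p = 0.00186), Far1 (0.80, adjusted p = 0.00687) and Rras2 (1.03, adjusted p = 0.000239) were called higher by limma. Arntl, a circadian clock factor, was not called (adjusted p = 0.125, limma), and Spon1 stayed below 0.1 FPKM. The differences of Btbd10, Far1 and Rras2 were all far below the 5.35 of Pth. Beyond Stfa3 and Casr, the costimulatory ligand gene Cd86 lies 195.5 kb from Stfa2 and was called lower, with 0.24, 0.207 and 0.217 FPKM with IL-33 against 6.86, 7.5 and 10.1 FPKM with IL-2 (log2 difference -2.89, SE 0.142, adjusted p = 2.8e-05, limma).

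Markers of other cells that could carry these RNAs were counted beside them. T cell markers were read in both groups, with a summed level of 3055 to 3096 FPKM with IL-33 and 2474 to 2673 FPKM with IL-2. Of the 11, limma called 6 higher and 3 lower, where 16.3% of all tested genes were higher and 25.7% lower. Cd3g, Cd3d and Cd4 were among the higher and Lat among the lower. Neutrophils are a known source of stefin A in the mouse. Of 11 measured neutrophil markers none passed the filter, 5 were listed at 0 in all Th2 libraries, and their sum ran from 0.0713 to 0.674 FPKM with IL-33 and from 0.0956 to 0.926 FPKM with IL-2. S100a8 was listed at 0 and S100a9 did not exceed 0.214 FPKM with IL-33. In lung the same sum was 190.4 to 320.2 FPKM in dGATA mice and 272 to 443.5 FPKM in wild-type mice, with Stfa2 below 0.4 FPKM in all of them.

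Of 10 neuroendocrine markers, 2 were tested and both were called higher by limma, where 16.3% of all tested genes were higher and 25.7% lower. They were Calca and Ddc, the decarboxylase of dopamine and serotonin synthesis (7.92 ± 2.66 FPKM with IL-33 and 1.2 ± 0.543 FPKM with IL-2, SD, n = 3 each, limma adjusted p = 0.00142). The summed level of the 10 markers was 82.2 to 88 FPKM with IL-33 and 18.8 to 24.8 FPKM with IL-2, most of it Calca. Epithelial markers summed to 5.47 to 5.67 FPKM with IL-33 and 6.37 to 10.2 FPKM with IL-2, and 1 of the 2 tested was called higher, through its IL-33 libraries alone, and 1 lower. Mast cell and basophil markers summed to at most 2.67 FPKM with IL-33 and 2.9 FPKM with IL-2, and the 1 tested was not called. Among 13 macrophage and dendritic cell markers, 2 were tested and Batf3 was called higher, the sum being 10.7 to 13.6 FPKM with IL-33 and 5.28 to 10.6 FPKM with IL-2. Xbp1, the only tested marker of B and plasma cells, was called higher (335 ± 16.3 FPKM with IL-33 and 173 ± 21.1 FPKM with IL-2, SD, n = 3 each, adjusted p = 0.000944, limma).

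Of 8 markers of group 2 innate lymphoid cells, which also carry ST2, 6 were tested. Limma called 3 higher, Klrg1, Icos and Il7r, where 16.3% of all tested genes were higher and 25.7% lower. The calls of Icos and Il7r were lost without IL-33 library 2 or 4, with adjusted p from 4.38e-05 to 0.056 and from 1.94e-06 to 0.0601 over 15 alternatives each. The sum of this list was 2314 to 2753 FPKM with IL-33 and 1298 to 1792 FPKM with IL-2, and Th2 cells express several of its genes themselves. Its part in the levels of Sval1, Nts, Pth and Stfa2 was not tested. Ccr3, the only tested eosinophil marker, was called higher (6.95 ± 1.16 FPKM with IL-33 and 1.18 ± 0.543 FPKM with IL-2, SD, n = 3 each, adjusted p = 0.00069, limma), while Prg2 was listed at 0 in all Th2 libraries. In the lung, Ccr3 and Prg2 were called lower in dGATA mice, Ccr3 at 0.125 ± 0.111 FPKM in dGATA lungs and 5.36 ± 0.733 FPKM in wild-type lungs (SD, n = 3 each). The deposited files hold no total depth, and relative depth ran from 0.669 to 1.34 in the Th2 libraries and from 0.582 to 1 in the lungs.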

How the data were processed

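Total RNA had been taken with TRIzol and made into stranded mRNA libraries, per the labels' protocols. The deposited values are FPKM per gene, and for making them the authors used Bowtie 0.12.8, TopHat 1.3.2 and Cufflinks 2.0.2 with the mm10 build, per the submitters' processing notes. The sources used here do not say how reads common to stefin copies were shared out. The files hold no read counts, so no count model was used and no interval or floor was computed. Relative depth was the modal ratio of FPKM values under 0.2 to those of 1 library of the comparison.

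FPKM were summed per symbol, and values were transformed to log2(FPKM + 1). Genes with at least 1 FPKM in at least 3 of 6 libraries were fitted with limma 3.58.1 (trend) in R 4.3.3, a procedure tested on simulated data. Calls used a Benjamini-Hochberg adjusted p below 0.05 over all tested genes. Lung levels were compared by exact permutation. The 4 genes and the gene lists were chosen with earlier results of these data known. Named genes were these 4, up to 4 genes of smallest p per list, every gene of their families and receptors, the 3 nearest genes on each side and the 3 most correlated genes. Cpe, Prg2, S100a8, S100a9 and the genes with the shared run are outside this rule and were picked after their values were seen. Clone and predicted names were counted only, apart from stefins and genes with the shared run. Upstream sequences came from RefSeq (GRCm38.p6) and overlaps from GENCODE M21. Markers Ly6g and Siglecf have no row in the tables. The alternatives were other pseudocounts, filters, scalings, entries per symbol, fits and libraries left out. The Th2 groups share no replicate number. In the lung, libraries of equal number were not treated as pairs.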

Additional observations from a re-analysis of the deposited data

How the results depend on the processing

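Every difference of Sval1, Nts, Pth and Stfa2 in the Th2 cells kept its direction under every alternative run. The genes were chosen for this contrast and their groups did not overlap, so the kept direction is a description and gives no support. The log2 difference of Sval1 was 10.2 with a pseudocount of 0.1, 8.23 with 0.5 and 8.26 after rescaling to TPM, and that of Stfa2 was 6.97, 5.65 and 5.70. A smaller added constant raises differences against values near 0, and rescaling to TPM raises every value before the constant is added. On leaving out 1 library, Sval1 ran from 7.005 to 7.55, Nts from 5.70 to 6.40, Pth from 4.34 to 5.97 and Stfa2 from 4.70 to 5.11. In the lung the sign of the Nts difference depended on the libraries, from -0.0347 to 0.20 with 1 left out, with -0.00294, -0.0347 and -0.029 without dGATA replicate 2, dGATA replicate 3 and wild-type replicate 3. Genes called lower with IL-33 numbered 1586 after rescaling to TPM and 1530 to 3135 with 1 library left out. In the lung 19 genes were called higher and 77 lower in a fit on 12 libraries, 4 lower with a filter of 5 FPKM, and 1 to 7 higher and 1 to 9 lower with 1 library left out. The deviations of equally numbered lung libraries had correlations of -0.286, -0.116 and -0.243, and with the replicate block 2 genes were called higher and 1 lower, while the block left the differences of Nts (0.05), Pth (-0.09) and Stfa2 (0.17) as they were. The Th2 groups share no replicate number and the labels pair none of their libraries. Libraries with adjacent numbers, 2 with 1, 4 with 3 and 6 with 5, had correlations of 0.0627, -0.0134 and 0.314, and a block by adjacent numbers was not run. The remaining pairs of an IL-33 and an IL-2 library ran from -0.273 (2 with 5) to 0.267 (2 with 3). Of 1136 values of 77 other named genes under the alternatives, 1089 kept direction and call, 31 lost the call, 16 gained one and 0 reversed a call. The cause of the other changes was not tested. Total depth is unknown, which limits levels below about 1 FPKM.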

Other observations

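Sval1 and Stfa2 were not alone in lying below a mean of 1 FPKM with IL-2 and at or above 10 FPKM with IL-33. In all 31 symbols did so, and Pth and Nts were not among them because their IL-2 means exceeded 1 FPKM. Of the 31, 19 were small RNA features, and 16 of these were listed at 0 in at least 1 IL-33 library, as Snord49a with 0, 0 and 6097 FPKM. The 6 highest means with IL-33 other than Sval1 were all of this kind (Snord49a, Snord45c, Snord95, Mir343, Snord1c and Mir1943), so their means say little about the group. Among the 12 other symbols, 1 was at 0 in an IL-33 library. The following of these were picked after their values were seen. Bcl2l14, a BCL2 family gene, had 17.7, 15.3 and 44.6 FPKM with IL-33, against 0.557, 0.793 and 0.111 FPKM with IL-2. Peg10, an imprinted gene of retrotransposon origin, had 12.4, 14.2 and 27.02 FPKM with IL-33, against 0.0926, 0.0787 and 0.0347 FPKM with IL-2. C3, the complement component, had 9.5, 8.21 and 41.7 FPKM with IL-33, against 0.653, 1.09 and 0.568 FPKM with IL-2. Bcl2l14, Peg10 and C3 were highest in IL-33 library 6, as were Slc17a6, Ermn, Sval1, Nts and Pth. Others of the 12 symbols were lowest in library 6, Stfa2, Gm5483, Gm5416 and Tox2 among them. Tox2 had 12.75, 14.33 and 11.36 FPKM in IL-33 libraries 2, 4 and 6. The shared order is thus partly one of the pick.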
